A study of Mus musculus with 4 samples.

Results

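The potassium channel genes described here are the 94 protein-coding genes among the 55421 genes of the files whose mouse symbol begins with Kcn, chosen by symbol alone. They comprise 40 voltage-gated channel genes, 15 inward rectifier genes (Kcnj), 14 two-pore channel genes (Kcnk), 12 genes of calcium- and sodium-activated channels with their beta subunits (Kcnm, Kcnn, Kcnt and Kcnu), 12 genes of auxiliary subunits (Kcnab, Kcne and Kcnip) and Kcnrg. Stranded RNA-seq after ribosomal RNA depletion was done on cultured C57BL/6J mouse astrocytes, which had been differentiated from neural stem cells in medium with serum. The cells carried a lentivirus expressing either a control shRNA (2 libraries) or an shRNA against Phf8 (2 libraries). Both groups were thus infected and carried an shRNA, and a short hairpin RNA lowers its target transcript without deleting the gene. Phf8 encodes a histone demethylase, and the comparison asks how transcript levels differ when it is lowered. The design text calls the libraries biological replicates without saying what was replicated, so p-values measure the spread between these libraries, which may be technical.

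Potassium channels let potassium ions cross the membrane down their gradient and thereby set the resting potential and end action potentials. In astrocytes the inward rectifier made of the Kcnj10 product is known for the very negative resting potential and for taking up the potassium that neurons release, together with the sodium potassium pump. Voltage-gated channels open on depolarisation, two-pore channels carry background leak current, and calcium-activated channels link calcium signals to the membrane potential. Auxiliary subunits do not form a pore and instead change the gating or trafficking of the pore-forming subunits.

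What the pore-forming members share is the selectivity filter, a short stretch that binds potassium ions without their water shell. In 1 coding transcript per gene of GENCODE M21, a run of 5 codons (threonine, serine or cysteine, any residue, glycine, tyrosine or phenylalanine, and glycine, with leucine also allowed as the fourth in two-pore channels) was found in 77 of the 94 genes. The 17 genes without it were the 12 auxiliary genes, the 4 Kcnmb beta subunit genes and Kcnrg. Tyrosine stood in the filter of 32 of the 40 voltage-gated genes and phenylalanine in the 8 Kcnh genes, and all 14 two-pore genes held 2 filters. The coding sequences of the filters of 6 members to which the results return are shown 5′ to 3′, with the 15 bases of the 5 filter codons in capitals.
Kcna6: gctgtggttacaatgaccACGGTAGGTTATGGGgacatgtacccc
Kcna2: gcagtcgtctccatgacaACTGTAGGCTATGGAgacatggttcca
Kcnd3: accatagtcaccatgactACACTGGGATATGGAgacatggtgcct
Kcnj16: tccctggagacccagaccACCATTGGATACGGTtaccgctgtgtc
Kcnj8: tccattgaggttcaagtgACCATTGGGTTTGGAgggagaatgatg
Kcnt1: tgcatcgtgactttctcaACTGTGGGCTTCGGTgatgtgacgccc
In mm10 they lie at chr6:126738635-126738679 on the minus strand in exon 1, chr3:107105206-107105250 on the plus strand in exon 3, chr11:111024886-111024930 on the plus strand in exon 2, chr6:142566436-142566480 on the minus strand in exon 3 and chr2:25894349-25894393 on the plus strand in exon 11. The stretch of Kcnd3 is joined across the intron between exons 1 and 2, from chr3:105459896-105658629 on the plus strand. The filters of Kcnj8 and Kcnt1 hold phenylalanine and the other 4 hold tyrosine.

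Libraries held 36839530 to 44724759 reads assigned to genes. Levels are given as CPM, read counts relative to library size after TMM scaling of the libraries, and, where genes are compared with each other, as RPKM, which is CPM per kilobase of exons. Phf8 itself stood at 53.3 and 53.0 CPM in the control libraries and at 44.3 and 42.3 CPM in the Phf8 shRNA libraries, a log2 fold change of -0.30 ± 0.06 (SE). Mitochondrial ribosomal RNAs took 21.2% and 22.5% of reads in control and 27.8% and 28.2% in Phf8 shRNA libraries. Astrocyte markers were present, with 10 of 10 above 1 CPM in control, and their summed level was 9602 to 9854 CPM in control and 6560 to 7303 CPM with Phf8 shRNA (3 rose and 6 fell). Markers of other cell types moved between the groups too. The 12 oligodendrocyte lineage markers summed to 649 to 695 CPM in control and 1186 to 1219 CPM with Phf8 shRNA, with 11 higher and 0 lower, and the 13 neuron markers to 1172 to 1212 and 1922 to 1927 CPM, with 8 of 9 tested higher and 0 lower. Most of the neuron sum was Map2, at 902 and 936 CPM in control and 1390 and 1379 CPM with Phf8 shRNA. Dcx stood at 106 and 116 CPM in control and at 210 and 207 CPM with Phf8 shRNA. Gad1 rose from 42.0 and 41.2 to 101 and 105 CPM and Syt1 from 44.6 and 44.5 to 101 and 106 CPM. The neuron markers Slc17a6 and Slc17a7 had only 2 and 7 reads in all 4 libraries together. Of 12 endothelial and mural markers, summed to 69.6 to 74.5 and 71.4 to 76.2 CPM, 4 fell, 1 rose and Cdh5 had 0 reads. The 8 microglial markers summed to 8.46 to 8.90 and 6.04 to 6.18 CPM, with 1 of 4 tested lower and Tmem119 at 1 read. Cd68 fell from 5.25 and 5.84 to 2.61 and 2.37 CPM. P2ry12, at 2.38 and 2.52 CPM in control and 2.84 and 2.78 CPM with Phf8 shRNA, did not pass the test. The part of these shifts in the channel results was not tested, and in bulk RNA fewer cells of a type and less RNA per cell cannot be told apart.

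Many potassium channel genes differed between the groups, in both directions. Of the 94 genes, 64 had enough reads to be tested, and 30 did not pass the low-count filter. Of the 64 tested, 25 rose and 14 fell when p-values of the edgeR quasi-likelihood test, adjusted over all genes by Benjamini and Hochberg, were held to 0.05. This is 60.9% of the tested members, beside 52.1% of all 21042 genes tested and 60.4% of the 14109 protein-coding genes tested, so the share called was close to that of protein-coding genes. Members that rose made up 39.1% of those tested, beside 24.8% of all genes and 25.2% of protein-coding genes, and members that fell made up 21.9%, beside 27.3% and 35.2%. A change of at least 2-fold was called in 19 members or 29.7%, beside 14.2% of all genes and 14.5% of protein-coding genes. The median log2 fold change of the 64 members was 0.24, and that of all genes tested 0.01. The gene family was chosen with earlier results of these data known, so these shares describe its members in these libraries only. With the biological coefficient of variation set to 0.2 instead of the estimated 3.64%, 11 members were called higher and 8 lower.

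**Figure D1:**
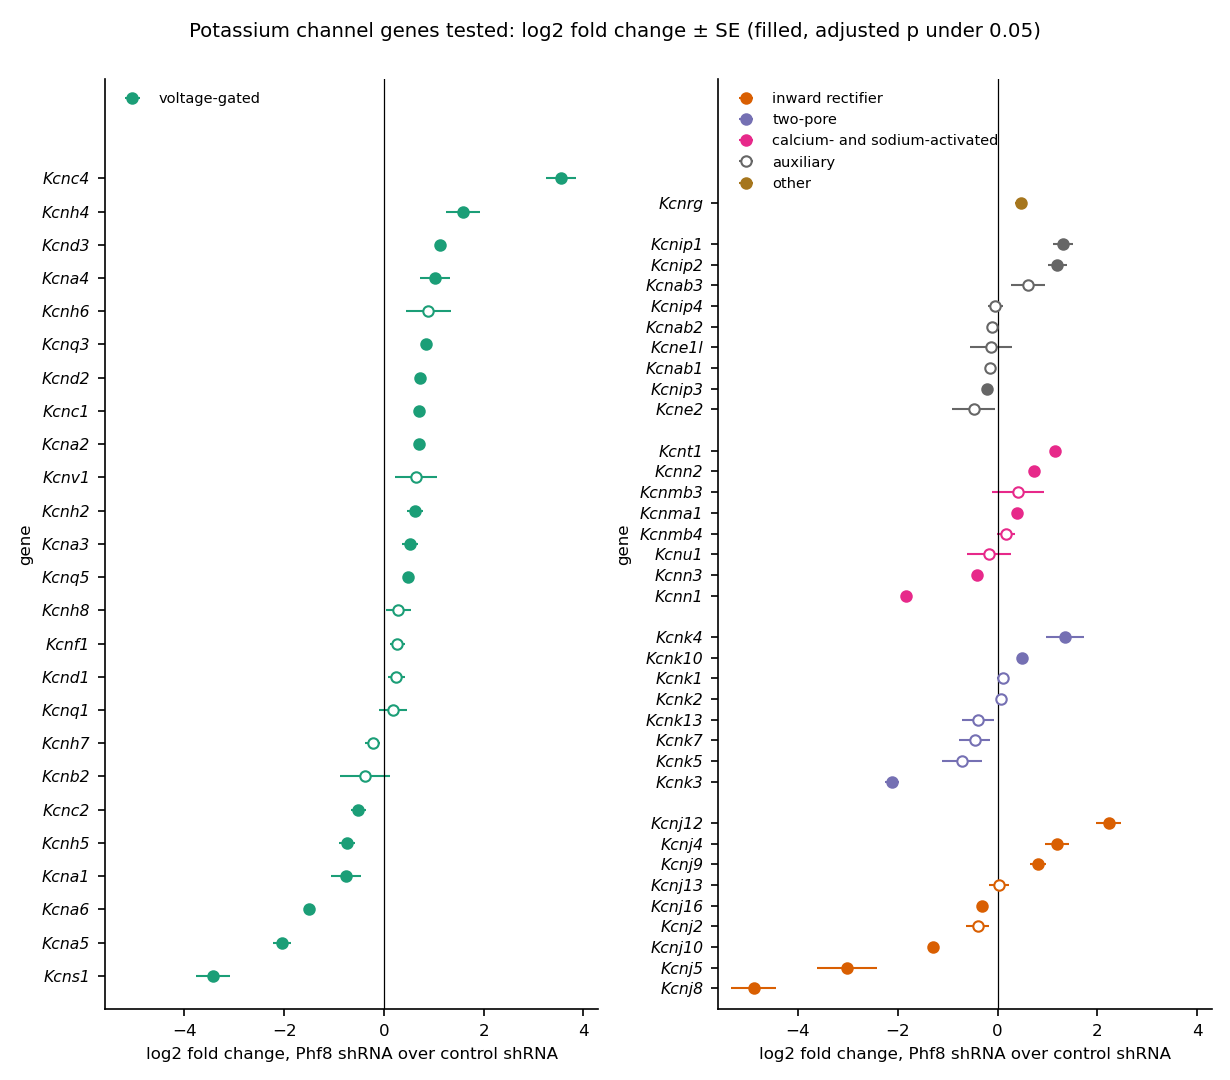
Log2 fold change of Phf8 shRNA over control shRNA (x axis) for 60 of the 64 potassium channel genes tested, by class; bars are standard errors of the edgeR fit and filled points are genes with an adjusted p under 0.05. The values run from -4.89 for Kcnj8 to 3.55 for Kcnc4, and 22 filled points lie to the right of 0 and 14 to the left.

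The make-up of the potassium channel transcripts shifted while their summed read level moved little. All 94 genes together amounted to 1459 and 1446 CPM in the control libraries and to 1447 and 1438 CPM in the Phf8 shRNA libraries. Per length, the sum was 242 and 240 RPKM in control and 216 and 215 RPKM with Phf8 shRNA. The share of Kv1 genes (Kcna) in the summed RPKM was 28.6% and 28.9% in control and 17.7% and 16.9% with Phf8 shRNA, and that of inward rectifiers 25.4% and 25.7% against 17.5% and 16.9%. The share of Kv4 genes (Kcnd) went the other way, from 11.3% and 11.1% to 23.3% and 24.1%. The groups did not overlap in any of these 3 shares. Nor did they in the share of the two-pore genes, at 8.45% to 8.65% in control and 9.47% in both Phf8 shRNA libraries. With 2 libraries per group, a lack of overlap is a weak mark, here and below. It also held for members that did not pass the test, such as Kcnk2, Kcnd1 and Kcnab1, and its frequency over all genes was not counted. The summed level of the two-pore genes was 20.9 and 20.3 RPKM in control and 20.5 and 20.3 RPKM with Phf8 shRNA, over the lower total of all members.

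**Figure D2:**
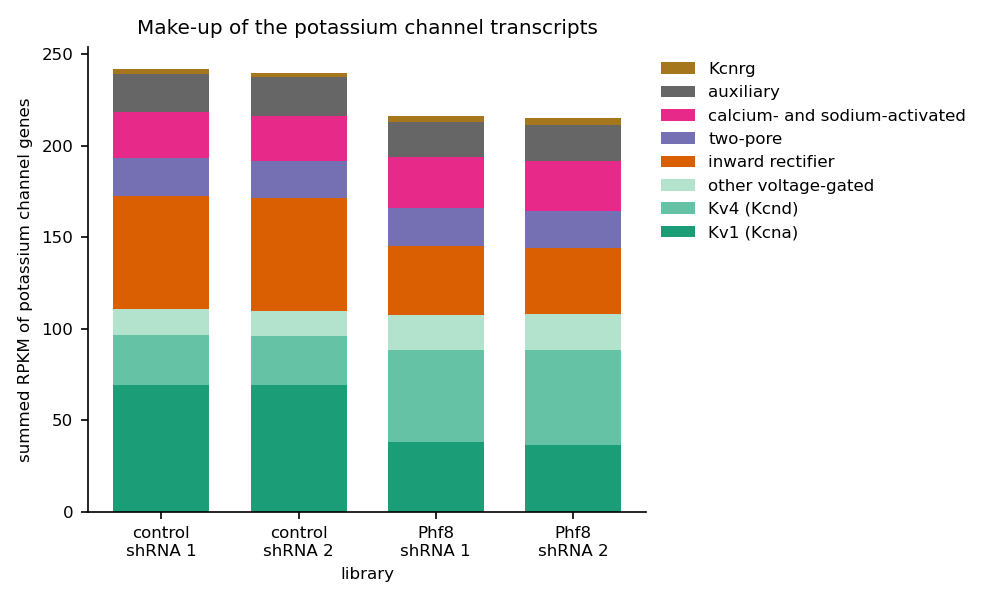
Summed RPKM of the potassium channel genes in each of the 4 libraries (y axis), split by subfamily or class. The Kv1 and inward rectifier segments are shorter and the Kv4 segment is taller in both Phf8 shRNA libraries.

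The order of the most abundant members changed with it. Per length, Kcna6 was the highest in control at 56.7 and 57.2 RPKM, followed by Kcnj10 at 35.5 and 35.1, Kcnj16 at 22.4 and 23.1 and Kcnip3 at 16.6 and 16.8 RPKM. In the Phf8 shRNA libraries Kcnd3 stood first at 27.05 and 27.45 RPKM, followed by Kcnd2 at 22.7 and 23.8, Kcna6 at 20.9 and 19.3 and Kcnj16 at 19.1 and 17.6 RPKM. The same 10 genes were the 10 highest in both groups. Between neighbours in the order of the first 10, libraries overlapped only with Phf8 shRNA, for Kcna2, Kcnj10 and Kcnip3 at ranks 5 to 7. A mean of at least 1 RPKM was reached by 23 members in control and 24 with Phf8 shRNA.

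**Figure D3:**
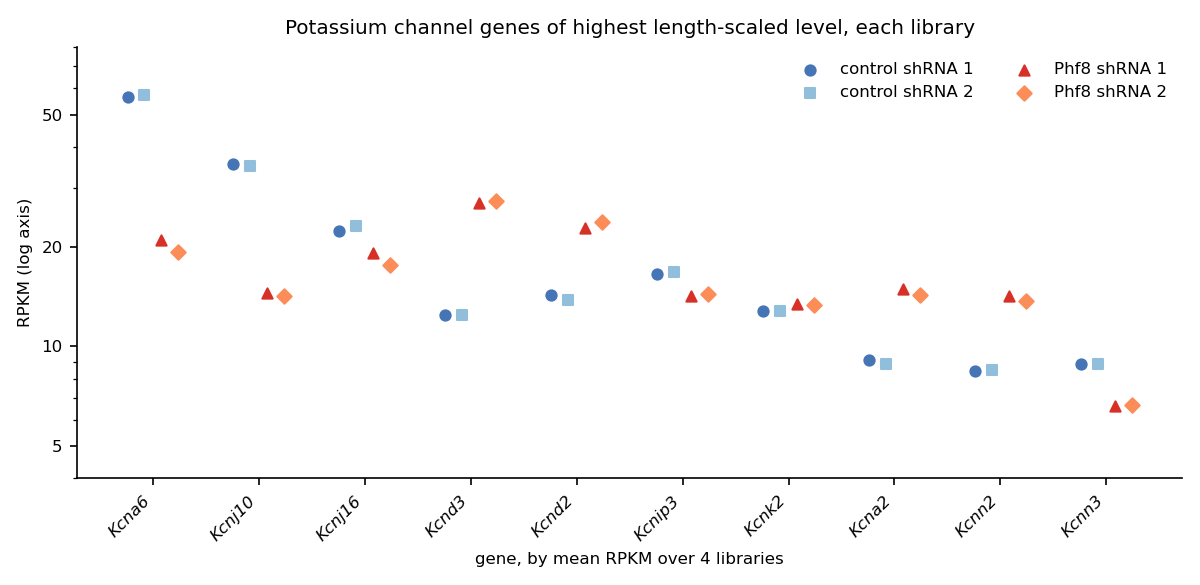
RPKM on a log axis of the 10 potassium channel genes with the highest mean, with 1 point for each of the 4 libraries. Kcna6, Kcnj10, Kcnj16, Kcnip3 and Kcnn3 are lower and Kcnd3, Kcnd2, Kcna2 and Kcnn2 higher in both Phf8 shRNA libraries, while Kcnk2 lies at nearly the same level in all 4.

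Among the voltage-gated genes, 29 of 40 were tested, 14 rose and 6 fell. The Kv1 genes split. Kcna6, a delayed rectifier gene of chromosome 6 (126708329 to 126740674), fell from 337 and 340 CPM in control to 124 and 115 CPM with Phf8 shRNA (log2 fold change -1.50 ± 0.06 SE, edgeR adjusted p 1.25e-144). Both Phf8 shRNA libraries were thus well below both control libraries. Exons of Gm26673 on the opposite strand cover 39.6% of the exonic length of Kcna6, and Gm26673 itself was given 19 to 45 reads per library. Kcna5, on the same chromosome (126532551 to 126535412), fell from 4.92 and 4.72 to 1.09 and 1.253 CPM (log2 fold change -2.05 ± 0.18 SE, edgeR adjusted p 2.27e-30). Kcna1, which lies between them, stood at 0.902 and 0.978 CPM in control and 0.463 and 0.654 CPM with Phf8 shRNA. It fell by 0.76 on the log2 scale with an edgeR adjusted p of 0.0237. That call was lost without control replicate 1, without control replicate 2 and without Phf8 shRNA replicate 1, at adjusted p of 0.0733, 0.145 and 0.244 in the same edgeR test.

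Of the 3 Kv1 genes of chromosome 3, 2 rose and Kcna10 had too few reads to be tested. Kcna2 (107101146 to 107115005), a channel gene of axons, rose from 109 and 106 to 178 and 171 CPM (log2 fold change 0.70 ± 0.06 SE, edgeR adjusted p 7.08e-35). Its neighbour Kcna3 (107036169 to 107038070), known from T cells and microglia, rose from 2.47 and 2.32 to 3.33 and 3.596 CPM. Kcna4, on chromosome 2, rose 2.03-fold from 0.532 and 0.489 to 0.994 and 1.09 CPM. The calls of Kcna3 and Kcna4 were lost in the Wald test of DESeq2. The ratio of Kcna6 to Kcna2 per length was 6.22 and 6.45 in control and 1.40 and 1.35 with Phf8 shRNA. Of the other Kv1 genes, Kcna7 and Kcna10 had 2 and 5 reads in the 4 libraries together.

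The 250 bases before a RefSeq start of the fallen Kcna5 and Kcna6 and of the risen Kcna3 are shown because neighbouring Kv1 genes moved alike. Each reads 5′ to 3′ on the strand of its gene, from the GRCm38.p6 promoter table, with CG dinucleotides in capitals.
Kcna5: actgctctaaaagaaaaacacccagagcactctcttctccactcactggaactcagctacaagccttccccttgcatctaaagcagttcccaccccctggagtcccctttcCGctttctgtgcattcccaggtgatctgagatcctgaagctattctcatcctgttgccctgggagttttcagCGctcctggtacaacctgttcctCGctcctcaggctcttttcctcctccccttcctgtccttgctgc
Kcna6: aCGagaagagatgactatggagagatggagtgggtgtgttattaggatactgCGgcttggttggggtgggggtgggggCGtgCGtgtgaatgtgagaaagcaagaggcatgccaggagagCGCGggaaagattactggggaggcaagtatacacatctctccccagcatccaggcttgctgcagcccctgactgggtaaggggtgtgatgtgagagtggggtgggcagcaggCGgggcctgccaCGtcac
Kcna3: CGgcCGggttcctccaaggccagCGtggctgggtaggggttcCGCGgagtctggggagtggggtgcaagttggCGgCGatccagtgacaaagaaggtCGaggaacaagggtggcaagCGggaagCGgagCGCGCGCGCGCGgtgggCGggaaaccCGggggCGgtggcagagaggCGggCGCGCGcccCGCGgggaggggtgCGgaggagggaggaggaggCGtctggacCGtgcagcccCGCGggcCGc
They lie at chr6:126535556-126535805 and chr6:126740675-126740924 on the minus strand and at chr3:107035912-107036161 on the plus strand. The dinucleotide CG, which reads the same on both strands, occurred 3 times before Kcna5, 8 times before Kcna6, 18 times before the RefSeq start of Kcna2 and 31 times before Kcna3. At least 1 CG was held by 92.1% of the 32851 windows of this length in the table. Their median was 6, and 71.0%, 43.0%, 21.7% and 5.19% of them held at least as many as Kcna5, Kcna6, Kcna2 and Kcna3. Of the 64 tested members, 49 had an entry. The RefSeq start used was not always near the annotated start of the gene. It lay 10286, 22013 and 43240 bases away for the risen Kcnma1, Kcnh2 and Kcnj12, and 239248 bases away for Kcnip4, which did not pass. The median was 14 CG over the 19 that rose, 7.5 over the 12 that fell and 9 over the 18 that did not pass, with ranges of 1 to 35, 3 to 17 and 0 to 43 that overlap. The same split was not made over all genes tested, so these medians cannot be read as a trait of potassium channel genes.

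Genes of the A-type Kv4 channels, which inactivate rapidly and act below the spike threshold, rose in 2 of 3 cases. Kcnd3 (chromosome 3, 105452330 to 105674002) rose from 119 and 120 CPM in control to 259 and 263 CPM with Phf8 shRNA (log2 fold change 1.13 ± 0.06 SE, edgeR adjusted p 1.24e-85). Kcnd2 (chromosome 6, 21215503 to 21729805) rose from 73.6 and 71.0 to 117 and 123 CPM (log2 fold change 0.73 ± 0.06 SE, edgeR adjusted p 2.66e-37). For both genes the Phf8 shRNA libraries lay above the control libraries. Kcnd1 stood at 2.61 and 2.20 CPM in control and 2.64 and 3.11 CPM with Phf8 shRNA and did not pass the test. The Kv4 partners Dpp6 and Dpp10, peptidase-like membrane proteins that speed Kv4 gating, rose 2.90-fold and 2.55-fold, Dpp6 from 28.0 and 27.1 to 78.7 and 81.1 CPM.

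The calcium-binding Kcnip subunits of Kv4 channels did not move as one. Kcnip1 rose from 0.994 and 1.296 to 2.94 and 2.75 CPM (log2 fold change 1.32 ± 0.20 SE, edgeR adjusted p 1.48e-10). Kcnip2 rose from 1.29 and 1.32 to 2.94 and 3.08 CPM (log2 fold change 1.20 ± 0.19 SE, edgeR adjusted p 1.42e-09). Kcnip3, the most abundant of them and also known as the transcriptional repressor DREAM, fell slightly, from 58.7 and 59.5 to 50.4 and 51.2 CPM (log2 fold change -0.22 ± 0.06 SE, edgeR adjusted p 3.79e-04). Kcnip4 stood at 3.42 and 3.40 CPM in control and 3.15 and 3.49 CPM with Phf8 shRNA and did not pass. The ratio of Kcnd3 to Kcnip3 per length was 0.752 and 0.744 in control and 1.90 in both Phf8 shRNA libraries.

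**Figure D4:**
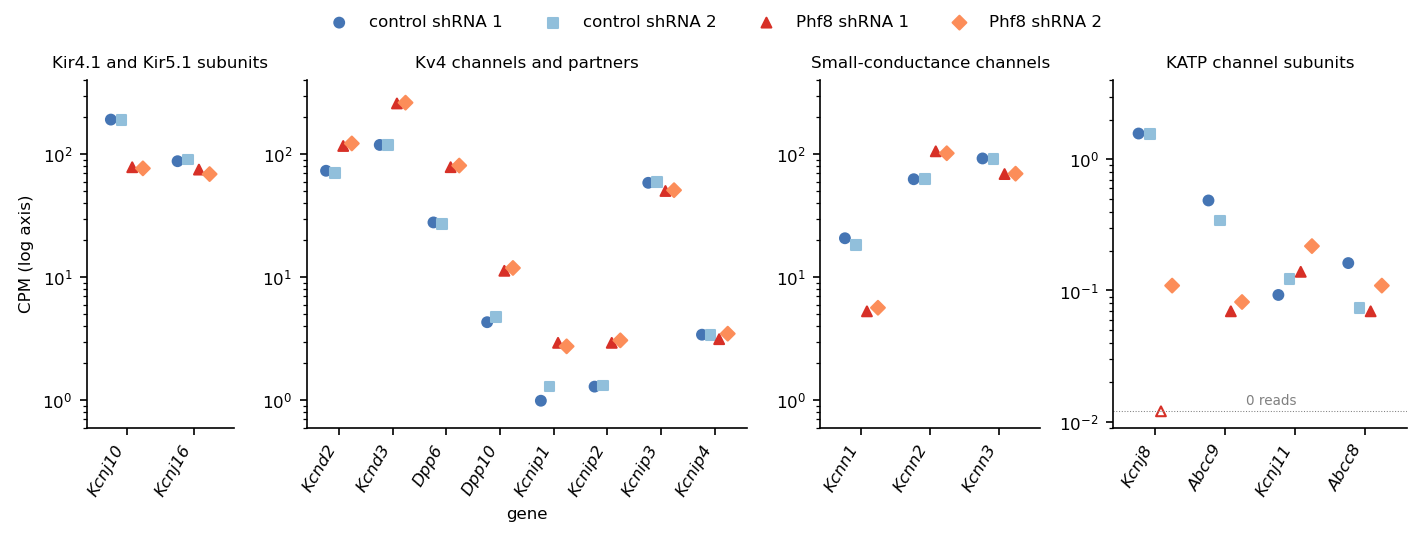
CPM on a log axis of the subunit genes of 4 channel complexes, with 1 point for each of the 4 libraries and an open symbol for a library with 0 reads. Kcnj10 is lower, Kcnd2, Kcnd3, Dpp6 and Dpp10 are higher, Kcnn1 is lower and Kcnn2 higher, and Kcnj8 and Abcc9 are lower in both Phf8 shRNA libraries.

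Among the Kv7 genes, whose products carry the muscarine-sensitive M current, Kcnq3 rose 1.80-fold from 9.18 and 10.1 to 16.8 and 18.1 CPM. Kcnq5 rose 1.40-fold, and Kcnq1, below 1 CPM in the mean, did not pass. The groups did not overlap for Kcnq3 or Kcnq5.

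Kv3 genes encode channels that allow fast firing. Kcnc1 rose 1.63-fold from 27.0 and 25.9 to 41.9 and 44.4 CPM. Kcnc4 had 13 and 4 reads in control and 103 and 89 reads with Phf8 shRNA, a depth-adjusted ratio of 11.9 (95% exact counting interval 7.23 to 20.8). Its fitted log2 fold change was 3.55 with all libraries and 4.57 without control replicate 1. Kcnc2 fell by 0.51 on the log2 scale with an edgeR adjusted p of 0.0014. It did not pass without control replicate 1 (adjusted p of 0.161 in the same edgeR test). Counting intervals cover counting error only.

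The other voltage-gated genes were mostly of low level. Of the 6 tested Kcnh genes, Kcnh4 and Kcnh2 rose, Kcnh5 fell from 3.26 and 4.47 to 2.73 and 1.83 CPM (log2 fold change -0.74 ± 0.16 SE, edgeR adjusted p 1.05e-05), and Kcnh6, Kcnh7 and Kcnh8 did not pass. Kcnh4 had 8 and 18 reads in control and 45 and 30 with Phf8 shRNA, and its log2 fold change of 1.59 became 2.32 without control replicate 2. Of the 10 genes of electrically silent subunits (Kcnf, Kcng, Kcns and Kcnv), which act only in mixed channels, 3 were tested. Kcns1 had 78 and 72 reads in control and 9 and 4 reads with Phf8 shRNA, a depth-adjusted ratio of 11.0 (6.22 to 21.1) downward (log2 fold change -3.43 ± 0.34 SE, edgeR adjusted p 1.34e-22). Kcnf1 and Kcnv1 did not pass, though Kcnf1 did without control replicate 1, where the log2 fold change of Kcnf1 was 0.59 instead of 0.27 (edgeR adjusted p 0.0166).

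Inward rectifier genes went in both directions, and the abundant ones fell. Of 15 genes, 9 were tested, 3 rose and 4 fell. Kcnj10 (chromosome 1, 172341210 to 172374085), the main potassium channel gene of astrocytes, fell from 192 and 190 CPM in control to 78.6 and 77.0 CPM with Phf8 shRNA (log2 fold change -1.29 ± 0.06 SE, edgeR adjusted p 4.91e-112). Kcnj16 (chromosome 11, 110968033 to 111027968), whose product joins that of Kcnj10 in pH-sensitive mixed channels, fell from 88.0 and 90.8 to 75.2 and 69.1 CPM (log2 fold change -0.31 ± 0.06 SE, edgeR adjusted p 1.88e-07). Neither gene had overlapping groups. The ratio of Kcnj10 to Kcnj16 per length was 1.59 and 1.52 in control and 0.761 and 0.810 with Phf8 shRNA. Kcnj16 thus became the higher of the pair only per length of annotated exons. In CPM, Kcnj10 stayed above Kcnj16 in both Phf8 shRNA libraries. Dag1, which encodes the dystroglycan that helps to anchor this channel, fell 1.17-fold. Among the astrocyte markers, Aqp4 fell and Slc1a2 rose beside them, at log2 fold changes of -1.33 and 2.85.

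The KATP channel, which couples metabolism to the membrane potential, consists of a Kcnj8 or Kcnj11 pore and a sulfonylurea receptor. Kcnj8 (chromosome 6, 142564837 to 142571614) had 68 and 64 reads in control and 0 and 4 reads with Phf8 shRNA. The depth-adjusted ratio was 31.3 (95% exact counting interval 11.96 to 117) downward (log2 fold change -4.89 ± 0.45 SE, edgeR adjusted p 2.71e-26). Abcc9, the receptor gene 16.2 kb from Kcnj8, had 21 and 14 reads in control and 3 in each Phf8 shRNA library, a ratio of 5.54 (2.31 to 16.1) downward. The other pair of this kind, Kcnj11 and Abcc8, was not tested, with 9 control and 14 Phf8 shRNA reads for Kcnj11 and 10 and 7 for Abcc8. Kcnj8 and Abcc9 are also known from mural cells, and Abcc9 is itself in the list of endothelial and mural markers. Of the other mural markers, Rgs5 and Acta2 fell, at log2 fold changes of -2.37 and -4.36, Pdgfrb rose by 1.33, Cspg4 did not pass at 0.07, and Des had 3 reads in all. The part of these cells in the result was not tested.

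The remaining inward rectifier genes had low levels. Kcnj12, of the strongly rectifying subfamily, rose from 0.439 and 0.562 to 2.43 and 2.26 CPM (log2 fold change 2.23 ± 0.25 SE, edgeR adjusted p 2.33e-18). Kcnj4 of the same subfamily rose from 0.855 and 0.758 to 2.01 and 1.66 CPM (log2 fold change 1.19 ± 0.23 SE, edgeR adjusted p 1.69e-06). The groups did not overlap for either gene. Kcnj2, also of it, stood at 1.39 CPM in both control libraries and at 0.971 and 1.14 CPM with Phf8 shRNA and did not pass. Kcnj9, a subunit of channels gated by G proteins, rose from 2.03 and 2.18 to 3.52 and 3.87 CPM (log2 fold change 0.81 ± 0.16 SE, edgeR adjusted p 3.04e-06). Kcnj5, another such subunit, had 21 and 15 reads in control and 0 and 4 with Phf8 shRNA, a ratio of 8.55 (3.06 to 33.1) downward. The fitted log2 fold changes of Kcnj8 and Kcnj5 depended on which Phf8 shRNA library was left out, at -3.81 and -1.94 without replicate 1 and -9.06 and -7.19 without replicate 2. The latter are no bounds, since the remaining Phf8 shRNA library had 0 reads. Kcnj3 had 3 control and 14 Phf8 shRNA reads, and Kcnj6 10 and 21, both under the filter. Kcnj13 did not pass, and 49.1% of its exonic length overlaps Gigyf2 on the opposite strand.

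Of the 14 two-pore genes, 8 were tested, 2 rose and 1 fell. Kcnk2, a channel gated by stretch and lipids and the most abundant of the class, stood at 63.3 and 63.2 CPM in control and 66.4 and 66.1 CPM with Phf8 shRNA. It did not pass (log2 fold change 0.07 ± 0.06 SE, edgeR adjusted p 0.334), but did with upper-quartile scaling, where the log2 fold change of Kcnk2 was 0.15 (edgeR adjusted p 0.00709). Its relative Kcnk10 rose from 20.9 and 19.6 to 28.1 and 28.8 CPM (log2 fold change 0.49 ± 0.07 SE, edgeR adjusted p 9.50e-12), and the third gene of this subfamily, Kcnk4, rose 2.55-fold at a low level of 10 and 13 control and 27 and 29 Phf8 shRNA reads. Kcnk4 shares 13.1% of its exonic length with Catsperz, and its call was lost without control replicate 1 (edgeR adjusted p of 0.0526). Kcnk3 (chromosome 5, 30588170 to 30625271), an acid-sensitive leak channel gene, fell from 8.90 and 9.12 to 2.29 and 1.83 CPM (log2 fold change -2.12 ± 0.13 SE, edgeR adjusted p 5.25e-56). Kcnk1 at 4.62 to 5.50 CPM, Kcnk5, Kcnk7 and Kcnk13 did not pass.

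Genes of small-conductance calcium-activated channels changed in unlike directions. Kcnn1 (chromosome 8, 70842049 to 70863258) fell from 20.8 and 18.3 to 5.30 and 5.67 CPM (log2 fold change -1.84 ± 0.09 SE, edgeR adjusted p 7.83e-87). Kcnn2 (chromosome 18, 45268860 to 45686024) rose from 62.8 and 63.3 to 106 and 102 CPM (log2 fold change 0.72 ± 0.06 SE, edgeR adjusted p 2.21e-36). Kcnn3 (chromosome 3, 89520164 to 89675132) fell from 92.7 and 92.3 to 69.1 and 69.7 CPM (log2 fold change -0.41 ± 0.06 SE, edgeR adjusted p 1.03e-12). The groups did not overlap for any of the 3. The 4 Kcnn genes together summed to 176 and 174 CPM in control and to 181 and 178 CPM with Phf8 shRNA. Per length, Kcnn2 stood at 0.949 and 0.960 of Kcnn3 in control and at 2.14 and 2.05 times Kcnn3 with Phf8 shRNA. Kcnn4, the intermediate-conductance gene, had 12 control and 21 Phf8 shRNA reads and was not tested.

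Among the large-conductance channels, Kcnt1 (chromosome 2, 25863734 to 25918273), which encodes a sodium-activated channel, rose from 16.2 and 16.3 to 36.84 and 35.6 CPM (log2 fold change 1.16 ± 0.07 SE, edgeR adjusted p 1.90e-61). Kcnma1, the pore of the calcium- and voltage-gated BK channel, rose 1.31-fold from 13.0 and 12.7 to 15.96 and 18.01 CPM (log2 fold change 0.39 ± 0.08 SE, edgeR adjusted p 4.06e-06). Of its beta subunit genes, Kcnmb4 and Kcnmb3 did not pass, and Kcnmb1 and Kcnmb2 had 4 and 22 reads in all. Of the 4 gamma subunit genes of BK channels, 2 were tested. Lrrc38 rose from 7 to 32 reads, a ratio of 4.81 (2.09 to 12.9), and Lrrc55 did not pass.

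None of the 5 tested auxiliary genes outside the Kcnip family passed the test. Kcnab1 and Kcnab2, oxidoreductase-like beta subunits of Kv1 channels, stood at 8.02 to 8.16 and 7.14 to 7.97 CPM in control and at 7.22 to 7.41 and 6.73 to 7.22 CPM with Phf8 shRNA. Kcnab3 and the 2 tested Kcne genes, Kcne1l and Kcne2, were below 1 CPM in every library. Kcne1 had 6 control and 0 Phf8 shRNA reads, and Kcne3 had none. Kcnrg, a putative regulator of channel assembly that is itself no channel, rose from 4.65 and 4.52 to 5.87 and 6.95 CPM (log2 fold change 0.48 ± 0.12 SE, edgeR adjusted p 2.28e-04).

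The 30 untested members had at most 33 reads in the 4 libraries together, and 5 of them had none (Kcne3, Kcng4, Kcnj1, Kcnk15 and Kcnk16). A count of 0 in a library allows up to 3 reads. Of the 25 with a read, the counting interval of the ratio left out 1 for 2, Kcne1 and Kcnj3. These differences compare reads of the libraries and were not tested across them.

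Neighbouring channel genes did not always move alike. In the cluster on chromosome 6, Kcna5, Kcna1 and Kcna6, 105 kb and 61.9 kb apart, all fell, and in that on chromosome 3, Kcna3 and Kcna2, 63.1 kb apart, both rose, while Kcna10, 68.1 kb from Kcna2, was not tested. Kcnj16 fell and Kcnj2, 38.2 kb away, did not pass. On chromosome 1, Kcnj9 rose although Kcnj10, which begins 11.9 kb away, fell.

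Genes that work with potassium channels also changed in both directions. Of a list of 32 partners (pump and cotransporter subunits, channel accessory and anchoring proteins, and pacemaker channels), 27 were tested, 10 rose and 11 fell (median 0.07). This is 77.8% of those tested, beside 52.1% of all genes and 60.4% of protein-coding genes. The list was picked by hand with earlier results of these data known, so this share says nothing about such partners in general. The beta subunit genes of the sodium potassium pump, Atp1b1, Atp1b2 and Atp1b3, fell 2.14-fold, 1.63-fold and 1.57-fold. Among the potassium chloride cotransporters, Slc12a7 fell 3.10-fold, Slc12a5 rose 1.86-fold at a low level, and Slc12a4 did not pass. The pacemaker channel genes Hcn2 and Hcn3 rose 1.66-fold and 1.88-fold and Hcn4 did not pass. Of the genes that cluster Kv1 channels, Cntnap2 rose from 0.347 and 0.171 to 26.6 and 19.6 CPM, Cntnap1 fell 1.31-fold and Adam22 did not pass.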

How the data were processed

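The authors deposited, for each library, a whole-number read count per gene with chromosome, start, end and strand. Per the submitters' processing notes, HISAT2, HTSeq, DESeq2 and the mm10 build were used, without versions or settings. Neither the annotation release nor the strand option of HTSeq is stated. It is thus not known whether the counts separate reads of overlapping genes on opposite strands, although the libraries were stranded. GENCODE M21 held 55240 of the 55421 identifiers and gave symbols, gene types and exonic lengths. The titles gave the groups. The members, classes and gene lists were chosen with earlier results of these data known.

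All genes were fitted together with the quasi-likelihood test of edgeR 4.0.16 (R 4.3.3, filterByExpr, TMM, two-sided, Benjamini-Hochberg adjusted p under 0.05), after a check on simulated data. Each standard error was the fold change divided by the root of F. Full statistics were given in each class for up to 4 called members per direction with the smallest p and at least 0.5 CPM and for the 2 of highest RPKM, and other members as values and counts. Where a group had under 20 reads, a depth-adjusted read ratio with a 95% exact binomial interval is added. Depth was 36839530 to 44724759 reads per library. Alternatives were other scalings, DESeq2 1.42.0 and limma-voom (limma 3.58.1), stricter and no filtering of low counts, a replicate block, removal of each library in turn, leaving out mitochondrial genes and Gm26917, and a fixed biological coefficient of variation. The 5 Kcn genes that are not protein-coding are not members. Sequences came from GENCODE M21 transcripts and the RefSeq promoter table. Some genes and sequences are not reported here, though the counts over all members include them.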

Additional observations from a re-analysis of the deposited data

How the results depend on the processing

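Over 14 alternatives, no called potassium channel gene changed direction, and 18 of the 39 called genes passed in every alternative in which they were tested. Leaving aside the fixed biological coefficient of variation, 34 did, the others being Kcna1, Kcna3, Kcna4, Kcnc2 and Kcnk4. At that fixed coefficient 20 calls were lost. Among them were those of the abundant Kcna2, Kcnd2, Kcnj16, Kcnip3, Kcnn2 and Kcnn3, and those of Kcnk10 and Kcnma1. Calls were gained for Kcnk2 with upper-quartile scaling and for Kcnf1 without control replicate 1. With that coefficient at 0.2, 11 members were higher and 8 lower, 8 partners were higher and 4 lower, and 1262 of all genes were higher and 2043 lower. Without 1 library at a time, 25 members were higher each time and 12 to 14 lower, 9 to 10 partners were higher and 10 to 11 lower, and 4038 to 4755 of all genes were higher and 4917 to 5480 lower. The group left with 1 library was assumed to vary like the other. Of all genes called, 5225 were higher and 5740 lower with TMM, 6640 and 4811 with upper-quartile scaling and 4335 and 6422 with the library size alone, while members called higher and lower were 25 and 14, 26 and 13, and 25 and 14. Deviations of same-numbered libraries were uncorrelated (r = -0.001 across genes), so the numbers do not show a pairing. With the replicate block 25 members were higher and 14 lower, 10 partners higher and 11 lower, and 5202 of all genes higher and 5727 lower. Without length scaling, the 10 members of highest CPM were those of highest RPKM, but their order differed. With Phf8 shRNA, Kcna2 at 178 and 171 CPM lay above Kcnd2 at 117 and 123 CPM and Kcna6 at 124 and 115 CPM. In control, Kcnd3 at 119 and 120 CPM lay above Kcnj16 at 88.0 and 90.8 CPM. Members with few reads, such as Kcnj5, Kcnj8 and Kcnc4, are limited by depth in the size of their change.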

Other observations

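Of the 64 tested members, 19 had an exon that overlaps an exon of a gene on the other strand. In 6 pairs both genes passed the test, and in all 6 both went the same way. Overlapping pairs among all genes were not counted, so this cannot be read as a trait of potassium channel genes. Not all pairs moved together. A330093E20Rik, opposite Kcnn2, had 352 and 347 reads in control and 350 and 362 with Phf8 shRNA and did not pass, while Gca, opposite Kcnh7, and Kcnq1ot1, opposite Kcnq1, were called at log2 fold changes of -0.62 and 0.39 and the channel genes were not. A230052G05Rik, opposite Kcnn1, had 25 and 24 reads in control and 3 and 2 with Phf8 shRNA, and Gm9899, opposite Kcnk3, had 45 and 35 against 21 and 7. Gm26673, opposite Kcna6, fell by 0.80 on the log2 scale. Kcnd3os, opposite Kcnd3, had 52 and 53 reads in control and 108 and 83 with Phf8 shRNA, and AC121957.1, also opposite Kcnn2, had 51 and 50 against 87 and 82. Each of these last 5 genes held far fewer reads than the channel gene. Where exons overlap, it is not known whether the counts separate the reads of the 2 strands.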
